A study of Xenopus laevis with 36 samples.

Results

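The comparison described here is that of rIL34-treated with rctrl-treated skin wounds of juvenile Xenopus laevis at 14 days post wounding (dpw). Libraries were assigned from their titles and treatment labels, which gave 6 rIL34 and 6 rctrl libraries at 14 dpw, 12 of the 36 in the series. All groups were wild-type (WT) juvenile frogs with a biopsy punch wound through epidermis and dermis of the dorsal skin, and all were injected subcutaneously near the wound at 3 dpw. rIL34 is the frog cytokine interleukin-34 made in Sf9 insect cells, and rctrl is the preparation from Sf9 cells that carried the empty vector, processed the same way. The other groups were rCSF1-treated wounds at 14 dpw and rIL34-, rctrl- and rCSF1-treated wounds at 7 dpw, with 6 libraries each. The libraries of all groups entered the main edgeR fit, and so its filter, its scaling and its estimate of the spread. rCSF1-treated wounds at 7 dpw entered only in this way, and the other groups also served for contrast. The sources used here do not state whether each library came from a separate animal, so that p-values measure the spread between libraries. Each wound received 1 injection.

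IL34 and colony-stimulating factor-1 (CSF1) are the ligands of the CSF1 receptor (CSF1R), on which the survival and differentiation of macrophages depend. In mammals IL34 also binds the phosphatase PTPRZ1 and the proteoglycan syndecan-1, and it maintains the Langerhans cells of the epidermis. Neutrophils and macrophages enter a skin wound early. Leukocytes, neutrophils and lymphocytes among them, are guided into tissue by chemokines and by selectins, the adhesion molecules that activated vessel walls display.

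Depth was 25205710 to 30784603 counts (median 28095467) in the rIL34 libraries and 28978254 to 31625071 (median 31016194) in the rctrl libraries. Markers of skin were present in every library: tp63.L, a transcription factor of basal keratinocytes, lay at 352 to 407 CPM (counts scaled to library size) in rIL34 wounds and 315 to 475 CPM in rctrl wounds, and col1a1.L, a chain of collagen I, at 1785 to 4461 CPM in rIL34 wounds and 1632 to 7206 CPM in rctrl wounds. CSF1R was read in all 12 libraries, at 32.8 to 101 CPM in rIL34 wounds and 25.8 to 46.3 CPM in rctrl wounds. Some libraries stood apart. rIL34 replicate 4 carried the most CCL19, tf.L, cfh.L and mmp1.S of the 12, rIL34 replicates 1 and 5 the most fos, and rIL34 replicate 1 the most skeletal muscle transcripts (0.114% of its counts, against 0.0260 to 0.0460% in the other rIL34 libraries and 0.0260 to 0.0410% in rctrl libraries). Red blood cell transcripts took 0.155% of the counts of rIL34 replicate 2 and 0.257% of those of rctrl replicate 3, against 0.0253 to 0.0474% in the other 10 libraries. The shares of muscle, red blood cell, epidermal, mitochondrial-genome and ribosomal RNA transcripts did not differ between the groups in exact two-sided permutation tests (adjusted p of 0.314 to 0.870 over the 5 shares).

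Few genes passed the test at 14 dpw, and nearly all of them were higher after rIL34. Of 28225 genes tested with edgeR over the 36 libraries, 13 were higher (0.0461%) and 1 was lower (0.00354%) in rIL34 than in rctrl wounds at an adjusted p under 0.05, 14 in all (0.0496%). These are called genes in what follows, and a value with ± SE given in parentheses after CPM levels is the log2 fold change of rIL34 over rctrl wounds. At a nominal p (before adjustment) below 0.05 there were 2252 genes (7.98%), 1382 higher (4.9%) and 870 lower (3.08%), and for 228 genes (0.808%) every rIL34 library lay above every rctrl library while for 150 (0.531%) every rIL34 library lay below. The median log2 fold change over all tested genes was 0.004, and 14290 of them (50.6%) had a positive value. That share stands beside every count of positive or negative values within the lists below. The count of calls differed between tools and between the sets of libraries fitted. A fit to the 18 libraries of 14 dpw, which leaves out the wounds of 7 dpw, called 186 genes (0.659%), 142 higher (0.503%) and 44 lower (0.156%), and all 14 called genes were among them. DESeq2 called 152 higher and 32 lower, again with all 14, and voom with quality weights called 73 higher and 58 lower, with 10 of the 14. These counts, each over the 28225 genes, are the ones to set beside the calls within lists given below. An edgeR fit to the 12 libraries of the compared groups alone called 0 in either direction, with 2290 higher and 1733 lower at a nominal p below 0.05. Single libraries moved the count as well. It was 42 without rIL34 replicate 1, 19 without replicate 2, 23 without replicate 3, 5 without replicate 4, 6 without replicate 6 and 0 without replicate 5 (1099 higher and 647 lower at a nominal p below 0.05 in that edgeR fit). Without rctrl replicates 1, 2, 3, 4, 5 and 6 in turn it was 7, 5, 5, 1, 4 and 5. With the 18 libraries of 14 dpw the count of 186 was 358, 250, 194, 115, 17 and 23 without rIL34 replicates 1 to 6 in turn, and 17, 20, 52, 19, 50 and 19 without rctrl replicates 1 to 6. The calls of that fit within gene lists, given below, moved with it. Without rIL34 replicates 5 or 6 or any rctrl replicate, 6 calls among T and NK cell markers were 0 to 4, 6 among B and plasma cell markers 0 to 2, 4 among chemokines 1 or 2, 5 among cell cycle genes 0 to 3 and 5 among inflammatory genes 0, and all other lists that had a call in that fit had 0 except for 1 neutrophil marker without rctrl replicate 1. Of lists without a call there, macrophage markers gained up to 4 higher and gland genes up to 3 lower when some library was left out. Without rIL34 replicate 4 the chemokine, inflammatory and B cell counts were 2, 2 and 1, and the calls in the complement list and in that of CSF1, IL34 and their receptors were lost. In bulk tissue, fewer cells of a type and less RNA per cell cannot be told apart, which holds for every cell type marker below.

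**Figure D1:**
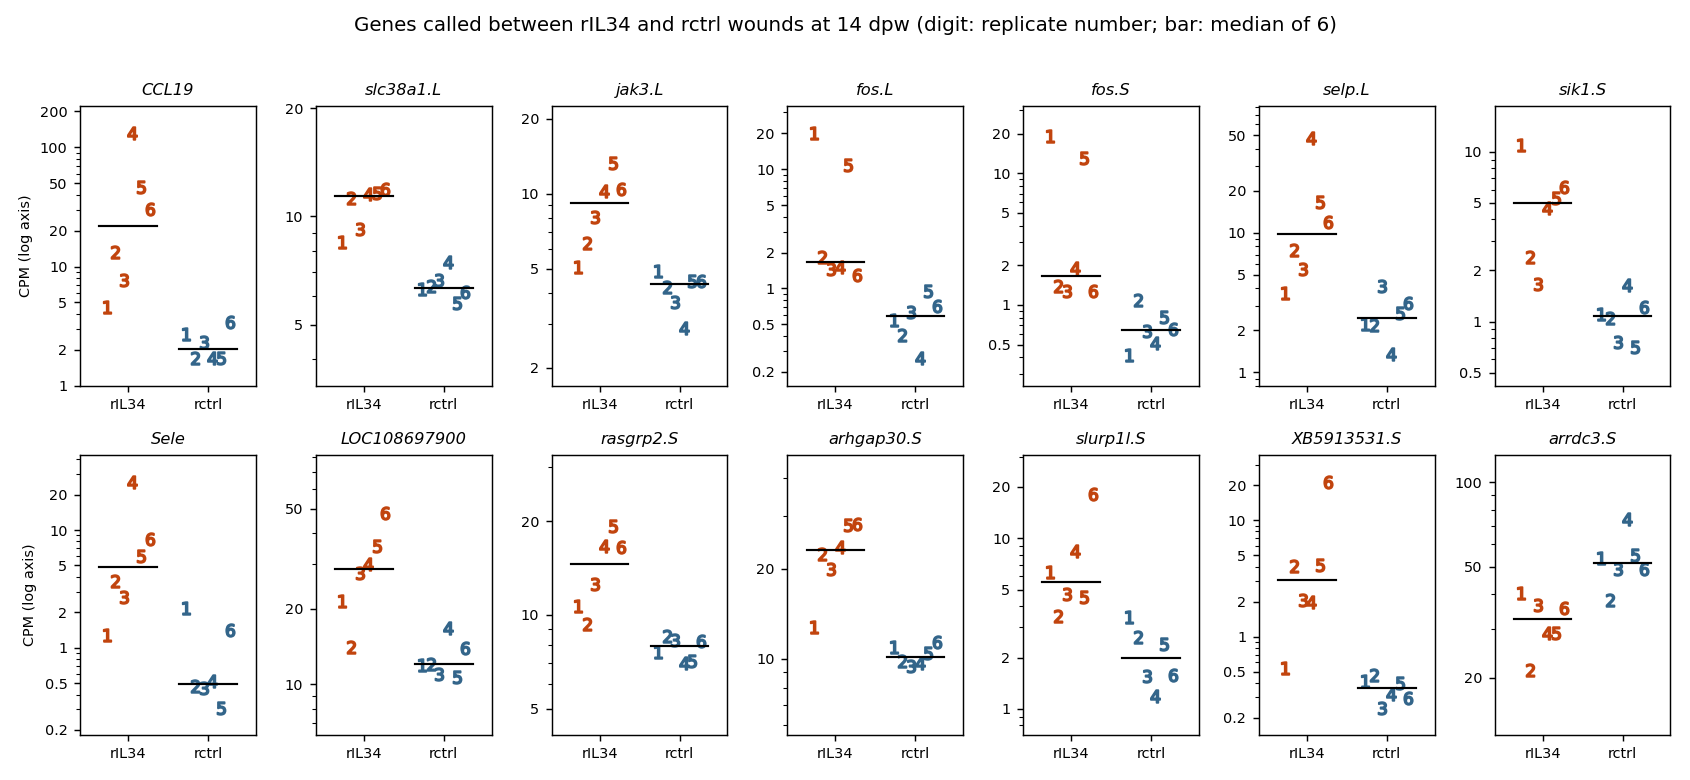
CPM (log axis) of the 14 called genes in the 6 rIL34 and 6 rctrl libraries at 14 dpw, 1 panel a gene, with each digit a library by its replicate number and the bar the median of 6. Groups overlapped for selp.L, Sele, LOC108697900 and arrdc3.S, and replicate 4 is the highest rIL34 library for CCL19, selp.L and Sele.

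The chemokine CCL19 and the selectins selp.L and Sele were called higher. CCL19, the chemokine that draws lymphocytes and dendritic cells carrying CCR7, was read at 4.54 to 131 CPM (median 21.9) in rIL34 wounds and at 1.7 to 3.43 CPM (median 2.03) in rctrl wounds. No rIL34 library reached as low as any rctrl library, and rIL34 replicate 4 was far above the others. CCL19 rose by 4.10 ± 0.69 on the log2 scale (edgeR adjusted p = 0.012). Without rIL34 replicate 4 the value was 3.16 (adjusted p = 0.046), and the call was lost without rIL34 replicate 5 or rctrl replicate 4 (adjusted p up to 0.055). selp.L (chromosome 4L, 116340871 to 116351204), which encodes P-selectin of activated endothelium and platelets, was read at 3.70 to 48.1 CPM (median 9.76) in rIL34 wounds and at 1.36 to 4.17 CPM (median 2.44) in rctrl wounds. The lowest rIL34 library, replicate 1, fell between rctrl libraries and the other 5 lay above all of them. It rose by 2.56 ± 0.47 (adjusted p = 0.023), a call that held only without rIL34 replicates 1, 2, 3 or 6 or rctrl replicate 3 and that became 1.77 (adjusted p = 0.12) without rIL34 replicate 4. Sele is listed on 2 rows of the table, and the row called here, a gene for the endothelial E-selectin, was read at 1.28 to 25.6 CPM (median 4.85) in rIL34 wounds and at 0.309 to 2.19 CPM (median 0.493) in rctrl wounds. Only rIL34 replicate 1 lay within the rctrl range. Sele rose by 3.15 ± 0.61 (adjusted p = 0.032), and without rIL34 replicate 4 the value was 2.3 (adjusted p = 0.17). Its call held only without rIL34 replicates 1, 2 or 3 or rctrl replicate 1. The other row of that name gave 0.74 ± 0.27 (adjusted p = 0.36).

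jak3.L, rasgrp2.S, arhgap30.S and LOC108697900 were called higher too, with log2 fold changes of 0.86 to 1.21. jak3.L (chromosome 1L, 121143639 to 121184730) encodes the kinase of receptors with the common gamma chain, such as those for IL2 and IL7. It was read at 5.07 to 13.2 CPM (median 9.16) in rIL34 wounds and at 2.88 to 4.89 CPM (median 4.33) in rctrl wounds, with no overlap, and rose by 1.12 ± 0.19 (adjusted p = 0.012). The call was lost without rIL34 replicate 5 or rctrl replicate 4 (adjusted p up to 0.055). rasgrp2.S (chromosome 4S, 271290 to 309521), an exchange factor for Rap GTPases in platelets and leukocytes, was read at 9.38 to 19.3 CPM (median 14.6) in rIL34 wounds and at 7.00 to 8.54 CPM (median 7.95) in rctrl wounds. arhgap30.S (chromosome 8S, 103873147 to 103895551), which encodes a GTPase-activating protein, was read at 12.8 to 28.2 CPM (median 23) in rIL34 wounds and at 9.47 to 11.4 CPM (median 10.2) in rctrl wounds. Neither gene overlapped between the groups, and rIL34 replicates 4, 5 and 6 were the highest 3 libraries for both. rasgrp2.S rose by 0.86 ± 0.17 (adjusted p = 0.034) and arhgap30.S by 1.13 ± 0.22 (adjusted p = 0.036). Their other copies gave 1.02 ± 0.34 for rasgrp2.L (adjusted p = 0.30) and 0.77 ± 0.19 for arhgap30.L (adjusted p = 0.12). LOC108697900 (chromosome 7S, 108602666 to 108622450), for which no role is given here, was read at 14.1 to 48.1 CPM (median 28.9) in rIL34 wounds and at 10.7 to 16.7 CPM (median 12) in rctrl wounds. Only rIL34 replicate 2 overlapped with rctrl libraries, and the gene rose by 1.21 ± 0.23 (adjusted p = 0.032). The calls of rasgrp2.S, arhgap30.S and LOC108697900 held only without rIL34 replicates 1, 2 or 3, and their adjusted p reached 0.14, 0.14 and 0.13 without other libraries.

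The immediate early genes fos and sik1, whose transcription is induced soon after a cell is stimulated, were also called. fos.L (chromosome 8L, 73493467 to 73496705) was read at 1.30 to 20.1 CPM (median 1.67) in rIL34 wounds and at 0.259 to 0.958 CPM (median 0.590) in rctrl wounds, and fos.S (chromosome 8S, 25750566 to 25753402) at 1.27 to 19.1 CPM (median 1.64) in rIL34 wounds and at 0.413 to 1.08 CPM (median 0.648) in rctrl wounds. Both copies were high in rIL34 replicates 1 and 5 and low but above every rctrl library in the other 4. fos.L rose by 3.38 ± 0.59 (adjusted p = 0.012) and fos.S by 3.20 ± 0.57 (adjusted p = 0.014), and without rIL34 replicate 1 the values were 2.50 (adjusted p = 0.032) and 2.43 (adjusted p = 0.033). The call of fos.L was lost without rIL34 replicate 5 or rctrl replicates 2 or 4 (adjusted p up to 0.055), and that of fos.S without rIL34 replicate 5 or any rctrl replicate but 2 (adjusted p up to 0.059). sik1.S (chromosome 2S, 29142622 to 29148855), a salt-inducible kinase, was read at 1.66 to 11 CPM (median 5.02) in rIL34 wounds and at 0.711 to 1.65 CPM (median 1.08) in rctrl wounds. The lowest rIL34 library, replicate 3, lay just above the highest rctrl library. sik1.S rose by 2.27 ± 0.43 (adjusted p = 0.031), and its call held only without rIL34 replicates 1, 2 or 3 (adjusted p up to 0.10 otherwise). Over the list of 64 tested immediate early and heat shock genes, which does not hold sik1, both fos copies were called, 12 were higher and 0 lower at a nominal p below 0.05 (against 4.9% and 3.08% of all tested genes), and 7 were higher without rIL34 replicate 1. Among those 12, nr4a1.S, a nuclear receptor of the same early wave, had 8.87 ± 3.46 CPM in rIL34 wounds and 4.41 ± 1.01 CPM in rctrl wounds (means ± SD over 6 libraries each, as elsewhere, with a difference of 1.01 on the log2 scale and an adjusted p of 0.13).

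Of the remaining calls, slc38a1.L (chromosome 3L, 70433077 to 70469735), a transporter of glutamine, had the smallest standard error. It was read at 8.50 to 11.9 CPM (median 11.4) in rIL34 wounds and at 5.75 to 7.45 CPM (median 6.33) in rctrl wounds, without overlap. It rose by 0.73 ± 0.12 (adjusted p = 0.012), and its call held in 11 of 12 fits that left a library out, with an adjusted p of 0.051 without rIL34 replicate 5. slurp1l.S (chromosome 4S, 107452647 to 107457695) was read at 3.52 to 18 CPM (median 5.55) in rIL34 wounds and at 1.2 to 3.46 CPM (median 2.00) in rctrl wounds. XB5913531.S (chromosome 9_10S, 112084231 to 112088998) was read at 0.537 to 21.4 CPM (median 3.05) in rIL34 wounds and at 0.243 to 0.468 CPM (median 0.363) in rctrl wounds. For both the groups did not overlap and rIL34 replicate 6 was the highest library by far. slurp1l.S rose by 1.83 ± 0.36 and XB5913531.S by 3.98 ± 0.79 (adjusted p = 0.036 each), and without rIL34 replicate 6 the values were 1.36 (adjusted p = 0.21) and 2.81 (adjusted p = 0.24). The calls of both held without rIL34 replicates 1, 2 or 3, and that of slurp1l.S also without rctrl replicate 1, and in no other fit that left a library out. The gene called lower was arrdc3.S (chromosome 1S, 166853325 to 166865643), an alpha-arrestin that acts in the trafficking of membrane receptors. It was read at 21.3 to 40.1 CPM (median 32.4) in rIL34 wounds and at 38.0 to 73.8 CPM (median 51.4) in rctrl wounds, where rIL34 replicate 1 and rctrl replicate 2 overlapped. It fell by 0.73 ± 0.15 on the log2 scale (adjusted p = 0.044), a call that held only without rIL34 replicates 1 or 3 or rctrl replicate 2 (adjusted p up to 0.23 otherwise), and its other copy arrdc3.L gave -0.33 ± 0.36 (adjusted p = 0.95). Just outside the threshold was tf.L, the iron carrier transferrin, with 3.92 to 404 CPM (median 37.0) in rIL34 wounds, 1.97 to 7.60 CPM (median 4.12) in rctrl wounds and an estimate of 4.51 ± 0.93 on the log2 scale (adjusted p = 0.05, 3.04 without rIL34 replicate 4).

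Chemokine genes as a group lay higher in rIL34 wounds. All gene lists used here were chosen with earlier results of these data known, so that their counts and medians are descriptive. Of 35 tested chemokines and chemokine receptors, 29 had a positive and 6 a negative log2 fold change, and the median was 1.01, against 0.004 over all tested genes. CCL19 was the call among them, while 21 were higher and 0 lower at a nominal p below 0.05 (17 to 21 higher when a library was left out), against 4.9% and 3.08% of all tested genes. ccr7.L, the receptor of CCL19, was read at 1.65 to 7.67 CPM (median 4.52) in rIL34 wounds and at 0.527 to 1.00 CPM (median 0.855) in rctrl wounds, without overlap. Its log2 fold change of 2.43 ± 0.60 had an adjusted p of 0.12 over the 36 libraries and 0.018 over the 18 of 14 dpw, and the other copy ccr7.S had 2.98 ± 0.79 (adjusted p = 0.14 and 0.068). cxcl8.S, the neutrophil attractant interleukin-8, was read at 3.44 to 10.6 CPM (median 6.53) in rIL34 wounds and at 1.05 to 2.80 CPM (median 1.58) in rctrl wounds. These did not overlap either (exact two-sided Wilcoxon p = 0.0022, the smallest that 6 against 6 allows). Its log2 fold change was 1.87 ± 0.52 (edgeR adjusted p = 0.16, or 0.040 with the 18 libraries), and that of cxcl8.L was 1.51 ± 0.60 (0.45 and 0.072). CCL4, a chemokine of macrophages and T cells listed on several rows, was read on the row with the largest difference at 0.269 to 2.31 CPM in rIL34 wounds and 0.0585 to 0.396 CPM in rctrl wounds, with a log2 fold change of 2.86 ± 0.70 (0.12 and 0.040). The other rows did not pass in either fit, with 1.95 ± 0.63 for ccl4.L (0.27 and 0.12). The 2 rows named Ccl4 had 2.12 ± 0.71 (0.30 and 0.17) and 1.40 ± 0.50 (0.35 and 0.090). cxcl9.S, an attractant of T cells through CXCR3, was read at 1.07 to 27.1 CPM (median 2.56) in rIL34 wounds and at 0.468 to 1.43 CPM (median 0.921) in rctrl wounds. Its log2 fold change of 2.85 ± 0.69 was 1.43 without rIL34 replicate 5, the highest library. cxcr4.L, the receptor of CXCL12, had 4.53 ± 1.98 CPM in rIL34 wounds and 2.62 ± 0.51 CPM in rctrl wounds (log2 fold change 0.79, adjusted p = 0.30). With the 18 libraries, CCL19, ccr7.L, cxcl8.S and the row named CCL4 passed.

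**Figure D2:**
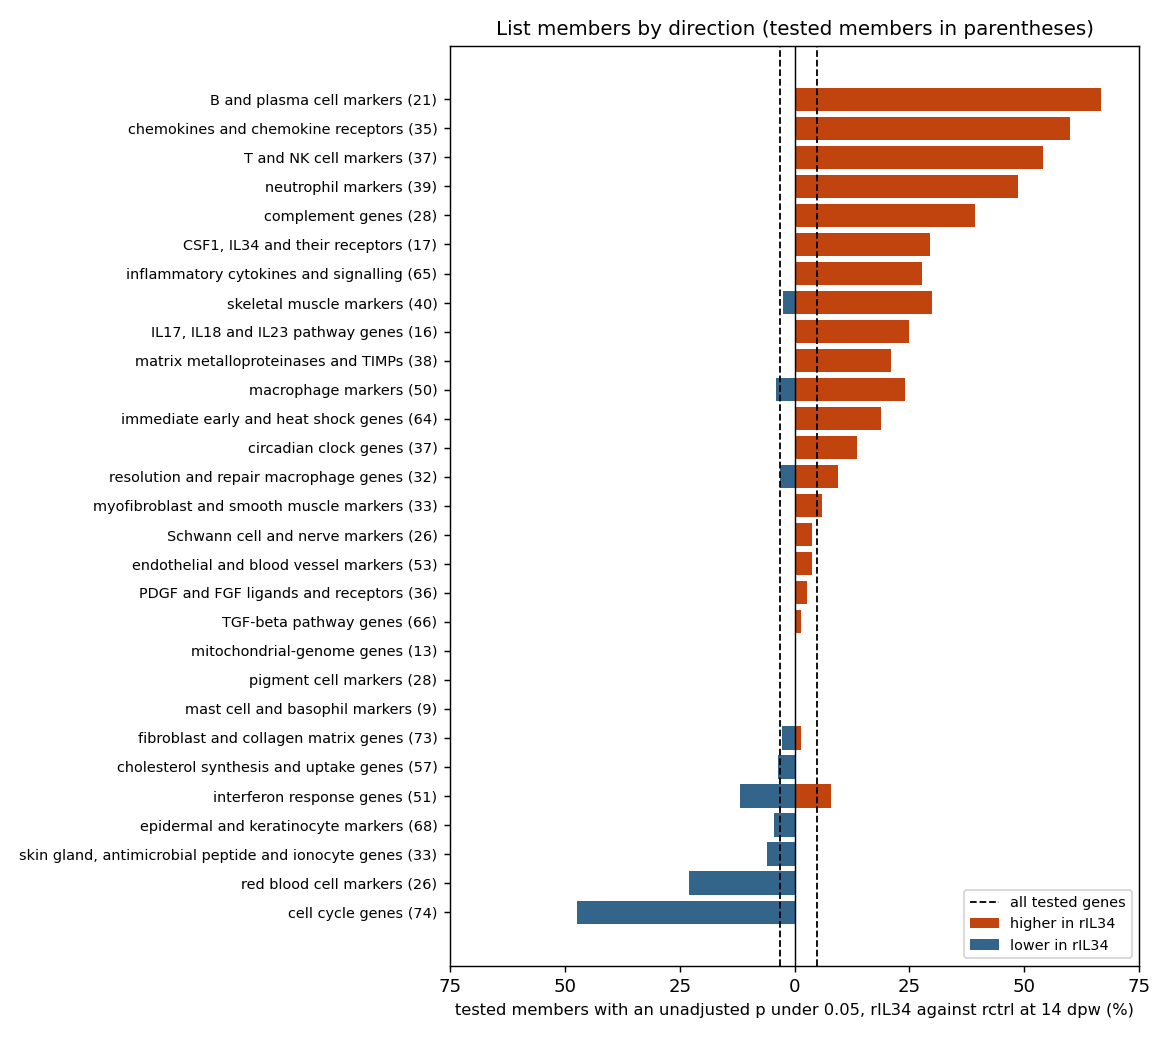
Share of the tested members of each gene list with a nominal p below 0.05 in rIL34 against rctrl wounds at 14 dpw (%, bars to the right higher and to the left lower in rIL34). Dashed lines mark the share over all tested genes, 4.9% higher and 3.08% lower, and the longest bars are those of the B cell list to the right and the cell cycle list to the left.

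Lymphocyte genes lay higher too, although none passed the test over the 36 libraries. Of 37 tested T and NK cell markers, edgeR called 0 over the 36 libraries, with 20 higher and 0 lower at a nominal p below 0.05 (against 4.9% and 3.08% of all tested genes), 33 of 37 log2 fold changes positive and a median of 0.87. With the 18 libraries 6 were called higher, DESeq2 called 6 and voom 0 (against 142, 152 and 73 of all 28225 genes). For 7 of the 37 every rIL34 library lay above every rctrl library (against 0.808% of all tested genes). The mean log2 CPM of the list was 1.32 to 2.53 in the rIL34 libraries and 0.85 to 1.15 in the rctrl libraries, so that every rIL34 library lay above every rctrl library on that measure. The summed CPM of the list did overlap, at 195 to 401 (median 252) in rIL34 and 160 to 197 (median 192) in rctrl libraries. cd3g.S, a chain of the T cell receptor complex, was read at 2.38 to 6.34 CPM (median 3.79) in rIL34 wounds and at 0.670 to 1.61 CPM (median 0.964) in rctrl wounds, a log2 difference of 1.90 ± 0.48 (adjusted p = 0.13 over the 36 and 0.018 over the 18 libraries). cd28.S, the co-stimulatory receptor of T cells, had 6.47 ± 3.98 CPM in rIL34 wounds and 1.71 ± 0.42 CPM in rctrl wounds (1.92 ± 0.49, 0.13 and 0.025), and lck.L, the kinase at the T cell receptor, had 6.37 ± 2.54 CPM in rIL34 and 2.62 ± 0.30 CPM in rctrl wounds (1.28 ± 0.33, 0.13 and 0.043). None of these 3 overlapped between the groups. The granzyme gene gzmh.S, which serves cytotoxic cells and is not on the list, was read at 36.3 to 78 CPM (median 57.5) in rIL34 wounds and at 16.4 to 29.9 CPM (median 25.4) in rctrl wounds (1.21 ± 0.55, 0.58 and 0.018).

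Of 21 tested B and plasma cell markers, edgeR again called 0 over the 36 libraries, with 14 higher and 0 lower at a nominal p below 0.05 (10 to 16 higher when a library was left out), against 4.9% and 3.08% of all tested genes, and a median log2 fold change of 1.00. The 18 libraries gave 6 called higher, DESeq2 6 and voom 3. PAX5, the transcription factor that fixes B cell identity, was read at 2.40 to 6.97 CPM (median 5.72) in rIL34 wounds and at 1.19 to 1.75 CPM (median 1.47) in rctrl wounds, without overlap (1.77 ± 0.38, adjusted p = 0.072 over the 36 and 0.035 over the 18 libraries). pax5.L, listed apart, had 5.85 ± 3.73 CPM in rIL34 wounds and 0.887 ± 0.364 CPM in rctrl wounds (2.71 ± 0.61, 0.089 and 0.045), where only rIL34 replicate 1 overlapped. cd79a.S, a signalling chain of the B cell receptor, had 2.06 ± 0.745 CPM in rIL34 and 0.664 ± 0.242 CPM in rctrl wounds (1.62 ± 0.41, 0.13 and 0.035). The mean log2 CPM of the list was 2.34 to 3.62 in the rIL34 libraries and 1.76 to 2.41 in the rctrl libraries, with replicate 1 again the rIL34 library inside the rctrl range. Summed over the list, where highly expressed members weigh most, CPM differed less and overlapped. It was 482 to 642 (median 579) in rIL34 and 417 to 584 (median 535) in rctrl libraries.

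**Figure D3:**
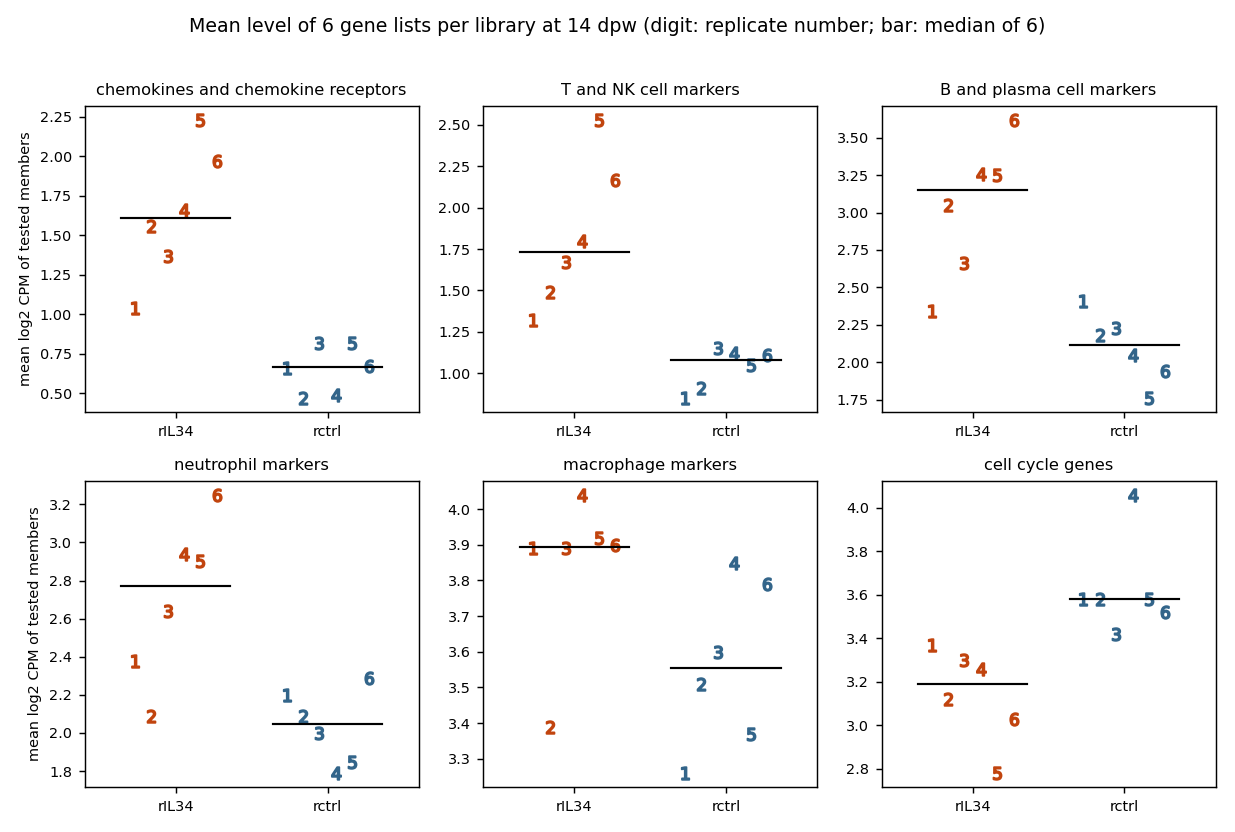
Mean log2 CPM of the tested members of 6 gene lists in each rIL34 and rctrl library at 14 dpw (digits are replicate numbers, bars the median of 6). On this measure, which weights each member equally, the groups did not overlap for chemokines, for T and NK cell markers, or for cell cycle genes, where the rIL34 libraries are the lower ones. The CPM summed over members overlapped for each of these lists. For chemokines it was 248 to 386 in rIL34 and 223 to 270 in rctrl libraries.

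Neutrophil and macrophage markers were on balance positive, and none passed the test over the 36 libraries. Of 39 tested neutrophil markers 37 log2 fold changes were positive, with a median of 0.67. edgeR called 0 over the 36 libraries, 19 were higher and 0 lower at a nominal p below 0.05 (against 4.9% and 3.08% of all tested genes), and the 18 libraries, DESeq2 and voom called 2 each. Without rIL34 replicate 6 the 19 were 11. ncf1.L, a cytosolic subunit of the phagocyte NADPH oxidase, had 17.9 ± 6.61 CPM in rIL34 wounds and 8.01 ± 1.86 CPM in rctrl wounds (log2 fold change 1.2 ± 0.27, adjusted p = 0.11 over the 36 and 0.041 over the 18 libraries). cybb.L, the membrane subunit of the same oxidase, was read at 23 to 66.5 CPM (median 28.8) in rIL34 wounds and at 15.3 to 19.9 CPM (median 17.8) in rctrl wounds, without overlap (0.96 ± 0.33, 0.33 and 0.075). mpo.L, the myeloperoxidase of neutrophil granules, overlapped between the groups, with 64.9 ± 28.6 CPM in rIL34 wounds and 57.6 ± 26.6 CPM in rctrl wounds (0.17 ± 0.40, adjusted p = 0.99). Its other copy mpo.S overlapped too and had a negative value, with 6.58 ± 2.23 CPM in rIL34 and 8.70 ± 5.51 CPM in rctrl wounds (-0.40 ± 0.51, adjusted p = 0.96). csf3r.L, the receptor for the granulocyte growth factor G-CSF, had 27.1 ± 8.54 CPM in rIL34 and 19.5 ± 3.17 CPM in rctrl wounds (0.47 ± 0.22, adjusted p = 0.58), with rIL34 replicate 2 below every rctrl library. Of 50 tested macrophage markers edgeR called 0, and 12 were higher and 2 lower at a nominal p below 0.05 (7 higher without rIL34 replicate 6), with a median of 0.30 and no call with the 18 libraries, DESeq2 or voom. A shorter list of 32 tested genes of resolution and repair macrophages had 3 higher and 1 lower at a nominal p below 0.05 (1 higher without rIL34 replicate 1 or rctrl replicates 2 or 3, and 2 lower without rIL34 replicate 2 or rctrl replicate 2), with 1 called lower with the 18 libraries and 0 by edgeR over 36, DESeq2 or voom. lcp1.S, an actin-bundling protein of leukocytes that is on neither list, was read at 20.7 to 46 CPM in rIL34 wounds and at 11.3 to 14.8 CPM in rctrl wounds (1.15 ± 0.26, adjusted p = 0.095 over the 36 and 0.018 over the 18 libraries).

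The ligands and receptors of the injected cytokine did not pass the test. Of 17 tested genes of CSF1, IL34 and related receptors edgeR called 0 over the 36 libraries, 5 were higher and 0 lower at a nominal p below 0.05 (2 higher without rIL34 replicate 6), against 4.9% and 3.08% of all tested genes, and the 18 libraries, DESeq2 and voom called 1, 1 and 0. CSF1R had 57.9 ± 24.6 CPM in rIL34 wounds and 34.6 ± 6.98 CPM in rctrl wounds, the log2 difference being 0.74 ± 0.31 (edgeR adjusted p = 0.50, or 0.15 with the 18 libraries). The groups overlapped, rIL34 replicate 6 was the highest at 101 CPM, and without it the value was 0.50. The endogenous ligand gene il34.S had 4.19 ± 1.75 CPM in rIL34 wounds and 2.79 ± 1.2 CPM in rctrl wounds (0.58 ± 0.29, adjusted p = 0.65), il34.L had 1.88 ± 0.29 CPM in rIL34 and 1.43 ± 0.52 CPM in rctrl wounds (0.39 ± 0.31, adjusted p = 0.88) and csf1.S had 18 ± 4.51 CPM in rIL34 and 15 ± 3.88 CPM in rctrl wounds (0.27 ± 0.16, adjusted p = 0.75), each with overlap. The injected protein leaves no transcript, so these rows are of the frogs' own genes. Of the 17 log2 fold changes 14 were positive and 3 negative. The phosphatase genes ptprz1.L and ptprz1.S gave -0.07 ± 0.18 and 0.002 ± 0.17, and the syndecan-1 gene sdc1.L gave -0.13 ± 0.36 (adjusted p = 0.99), each with overlap. At 7 dpw sdc1.L had 1.67 ± 0.37 (adjusted p = 0.0011), and its difference between the days was -1.80 ± 0.51 (adjusted p = 0.013). FLT3, a receptor of dendritic and progenitor cells listed on 2 rows, was read on the row with the larger difference at 5.46 to 11.6 CPM (median 8.56) in rIL34 wounds and at 2.12 to 4.90 CPM (median 3.93) in rctrl wounds without overlap (1.12 ± 0.48, adjusted p = 0.53 over the 36 and 0.040 over the 18 libraries). csf2rb.S, the shared beta chain of the receptors for GM-CSF and IL3, had 16.1 ± 8.03 CPM in rIL34 and 6.65 ± 1.94 CPM in rctrl wounds (1.27 ± 0.37, adjusted p = 0.19 and 0.11).

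Inflammatory and complement genes lay higher as well. Of 65 tested inflammatory cytokines and signalling genes, selp.L and Sele were called, and 18 were higher and 0 lower at a nominal p below 0.05 (against 4.9% and 3.08% of all tested genes), with a median log2 fold change of 0.36. SOCS3, an inhibitor of cytokine signalling that cytokines themselves induce, was read at 2.61 to 17.3 CPM (median 3.63) in rIL34 wounds and at 1.53 to 1.99 CPM (median 1.69) in rctrl wounds, without overlap and with replicate 4 the highest (1.86 ± 0.49, adjusted p = 0.14 over the 36 and 0.040 over the 18 libraries, 1.23 without replicate 4). socs1.S, a relative with the same kind of role, gave 1.39 ± 0.38 (0.16 and 0.049). Of 28 tested complement genes 27 had a positive log2 fold change, with a median of 0.53. edgeR called 0 over the 36 libraries, 11 were higher and 0 lower at a nominal p below 0.05, and the 18 libraries, DESeq2 and voom called 1, 2 and 1. The count of 11 was 6 without rIL34 replicate 4 and 7 without rctrl replicate 4 or 5. cfb.L, the factor B of the alternative pathway, was read at 26.1 to 71.2 CPM (median 43.1) in rIL34 wounds and at 14.4 to 19.9 CPM (median 17.9) in rctrl wounds, without overlap (1.40 ± 0.33, adjusted p = 0.11 and 0.035). cfh.L, the soluble inhibitor factor H, was read at 241 CPM in rIL34 replicate 4 and at 13 to 53.5 CPM in the other rIL34 wounds, against 4.57 to 20.3 CPM in rctrl wounds (2.33 ± 0.52, adjusted p = 0.086, and 1.00 without replicate 4).

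Cell cycle genes lay lower. Of 74 tested cell cycle genes 71 had a negative log2 fold change, with a median of -0.49. edgeR called 0 over the 36 libraries, and at a nominal p below 0.05 35 were lower and 0 higher (against 3.08% and 4.9% of all tested genes). With the 18 libraries 5 were called lower, DESeq2 called 3 and voom 8, and for 11 of the 74 every rIL34 library lay below every rctrl library (against 0.531% of all tested genes). The mean log2 CPM of the list was 2.78 to 3.37 in the rIL34 libraries and 3.42 to 4.06 in the rctrl libraries, which did not overlap, with rctrl replicate 4 the highest. The summed CPM of the list overlapped narrowly, at 875 to 1340 in rIL34 and 1338 to 2113 in rctrl libraries. Without rctrl replicate 4 the count of 35 was 18 and the median -0.40, and without rIL34 replicate 5 the count was 22. mki67.S, the proliferation marker Ki-67, was read at 16.2 to 27.6 CPM (median 22.3) in rIL34 wounds and at 31.3 to 59.9 CPM (median 40.8) in rctrl wounds (-0.96 ± 0.24, adjusted p = 0.13 over the 36 and 0.035 over the 18 libraries). tpx2.S, a spindle assembly factor, was read at 6.74 to 11.8 CPM (median 9.13) in rIL34 wounds and at 12.8 to 22.7 CPM (median 15.8) in rctrl wounds (-0.87 ± 0.23, 0.13 and 0.020). cenpf.L, a kinetochore protein, had 17.8 ± 3.33 CPM in rIL34 and 29.7 ± 4.42 CPM in rctrl wounds (-0.74 ± 0.21, 0.17 and 0.033), and kif23.L, the kinesin that acts when daughter cells part, had 19.7 ± 4.25 CPM in rIL34 and 33.5 ± 7.99 CPM in rctrl wounds (-0.76 ± 0.21, 0.16 and 0.046). None of the 4 overlapped between the groups.

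Matrix genes did not pass the test. Of 38 tested matrix metalloproteinases and TIMPs edgeR called 0 over the 36 libraries, 8 were higher and 0 lower at a nominal p below 0.05 (against 4.9% and 3.08% of all tested genes), and the median log2 fold change was 0.01. The 18 libraries called 0, DESeq2 3 and voom 0, and without rIL34 replicate 4 the 8 were 3. mmp1.S, an interstitial collagenase, was read at 226 CPM in rIL34 replicate 4 and at 1.58 to 33.6 CPM in the other 5 rIL34 wounds, against 0.508 to 11.2 CPM in rctrl wounds. mmp13.S, another collagenase, was read at 147 CPM in rIL34 replicate 4 and at 8.04 to 29.6 CPM in the others, against 4.93 to 12 CPM in rctrl wounds. The estimate for mmp1.S, 4.07 ± 1.1 (adjusted p = 0.16), was 2.07 without replicate 4, that for mmp13.S, 2.38 ± 0.71 (adjusted p = 0.21), was 1.19, and both overlapped between the groups with and without it. mmp25.L, a membrane-bound protease known from leukocytes, had 6.10 ± 3.81 CPM in rIL34 wounds and 2.55 ± 0.85 CPM in rctrl wounds (1.25 ± 0.32, adjusted p = 0.13). The collagen I genes lay lower in the mean, with wide overlap. col1a2.L had 2044 ± 543 CPM in rIL34 wounds and 2796 ± 1137 CPM in rctrl wounds (-0.45 ± 0.34, adjusted p = 0.86), and col1a1.L 3181 ± 1150 CPM in rIL34 and 4353 ± 2051 CPM in rctrl wounds (-0.45 ± 0.39, adjusted p = 0.90). The log2 ratio of collagen I transcripts (col1a1 and col1a2) to collagen III transcripts (col3a1) was 3.24 ± 0.53 in rIL34 wounds and 3.59 ± 0.30 in rctrl wounds, a difference of -0.36 (exact two-sided permutation p = 0.171, n = 6 each). The ratio was lowest in rIL34 replicate 4, at 2.28, and without rctrl replicate 5, the lowest of its group at 3.02, the difference was -0.47 (exact permutation p = 0.035). Without rIL34 replicate 4 it was -0.16 (exact permutation p = 0.342). Of 73 tested fibroblast and collagen matrix genes edgeR called 0 over the 36 libraries, 1 was higher and 2 were lower at a nominal p below 0.05, and no other tool or fit called any. acta2.L, the smooth muscle actin of myofibroblasts, had 91.4 ± 19.2 CPM in rIL34 wounds and 113 ± 40.2 CPM in rctrl wounds (-0.30 ± 0.47, adjusted p = 0.98). In stained sections of the same day, the study reported significantly more acta2-positive cells in rIL34 than in rctrl wounds. It measured the stained share of the wound area and left out signal next to glands. The study also saw acta2 signal in skin glands, which bulk counts include. The stained area and the bulk counts are thus unlike measures, and the reason for their difference was not tested.

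**Figure D4:**
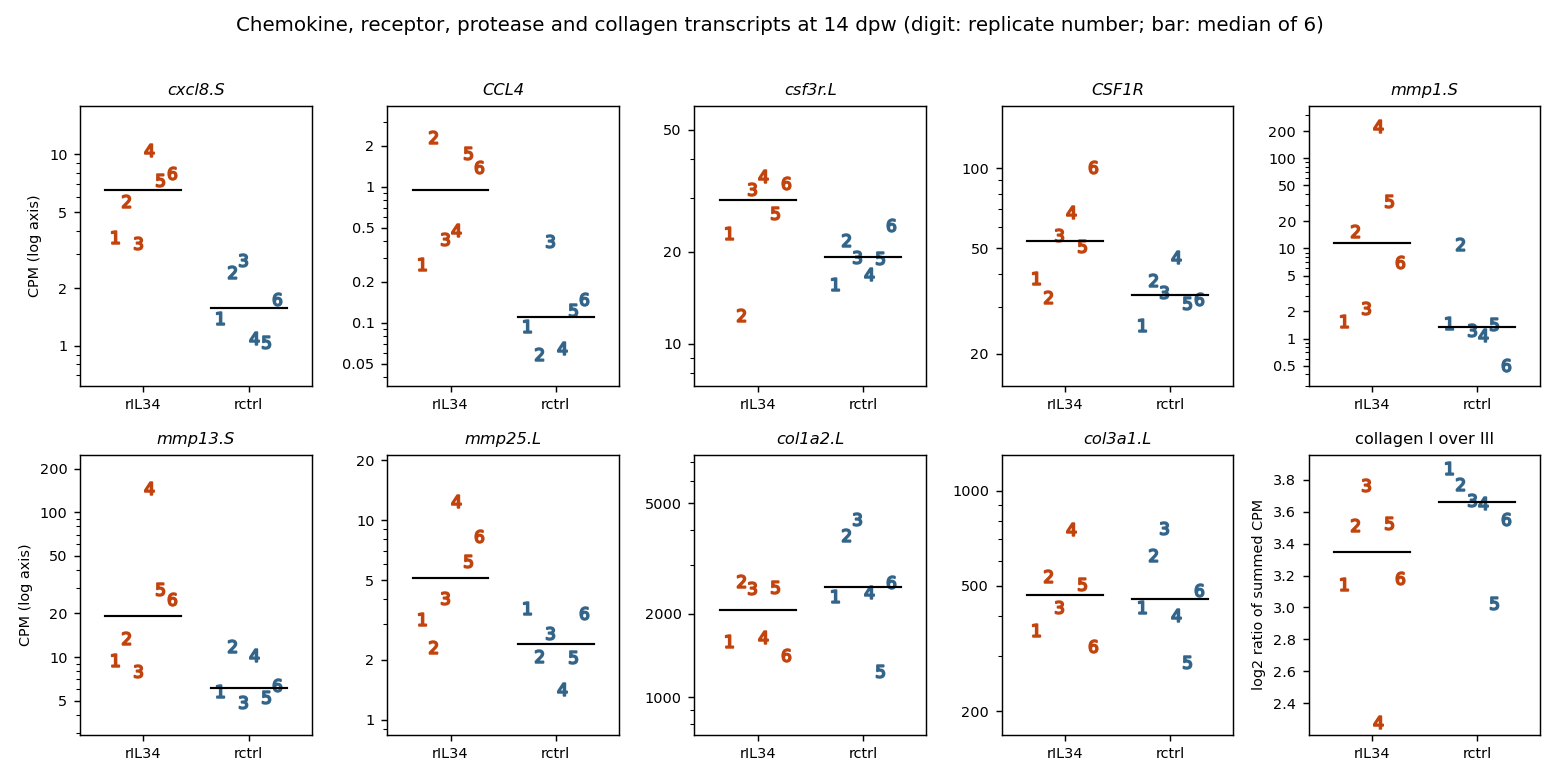
CPM (log axes) of 9 chemokine, receptor, protease and collagen genes, and the log2 ratio of collagen I to collagen III transcripts (linear axis), in each rIL34 and rctrl library at 14 dpw. Digits are replicate numbers and bars the median of 6; cxcl8.S is the panel without overlap, and replicate 4 is the highest rIL34 library for mmp1.S, mmp13.S and mmp25.L.

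No gene of the epidermal, gland and ionocyte lists was called, and the genes rhbg.L and rhcg.L, on no list, passed with the 18 libraries and not over the 36. rhbg.L (chromosome 8L, 123802540 to 123823929), an ammonium transporter, was read at 54.4 to 112 CPM (median 89.7) in rIL34 wounds and at 154 to 207 CPM (median 194) in rctrl wounds, without overlap (-1.1 ± 0.41, edgeR adjusted p = 0.38 over the 36 and 0.018 over the 18 libraries). rhcg.L, a related ammonium channel, was read at 5.65 to 30 CPM (median 8.62) in rIL34 wounds and at 29.4 to 52.1 CPM (median 36.6) in rctrl wounds, where only rIL34 replicate 1 overlapped (-1.68 ± 0.60, 0.34 and 0.049). atp6v1b1.L, a subunit of the proton pump, had 51.2 ± 13.3 CPM in rIL34 and 80.7 ± 18 CPM in rctrl wounds (-0.66 ± 0.29, 0.56 and 0.072). On the list of 33 tested gland, antimicrobial peptide and ionocyte genes, which does not hold the ammonium transporters, edgeR and the other tools called 0, and 2 were lower and 0 higher at a nominal p below 0.05 (against 3.08% and 4.9% of all tested genes). Of these 33, 16 log2 fold changes were positive and 17 negative, with a median of -0.013, so that the list as a whole was not lower. Of 68 tested epidermal and keratinocyte markers 54 had a negative log2 fold change, with a median of -0.16, 3 were lower and 0 higher at a nominal p below 0.05 (5 lower without rIL34 replicate 1 and 0 without replicate 6), and edgeR, DESeq2 and voom called 0. dll1.L, a Notch ligand, was read at 5.10 to 7.12 CPM (median 5.91) in rIL34 wounds and at 8.16 to 10.8 CPM (median 10.3) in rctrl wounds, without overlap (-0.75 ± 0.25, 0.31 and 0.018). Of 53 tested endothelial markers edgeR called 0 over the 36 libraries, 2 were higher and 0 lower at a nominal p below 0.05 (against 4.9% and 3.08% of all tested genes), and the 18 libraries, DESeq2 and voom called 1 each. That list does not hold the called selectin rows selp.L and Sele, which were counted with the inflammatory genes. mmrn1.L, the vessel wall and platelet protein multimerin-1, was read at 14.4 to 34.9 CPM (median 17.6) in rIL34 wounds and at 6.54 to 8.84 CPM (median 6.82) in rctrl wounds, without overlap (1.48 ± 0.38, 0.13 and 0.035). The endothelial cadherin cdh5.L was read at 84.2 CPM in rIL34 replicate 4 and at 9.77 to 17.7 CPM in the other rIL34 wounds, against 7.29 to 11.7 CPM in rctrl wounds, beside the high CCL19, selp.L and Sele of that library, and its part in those differences was not tested.

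Other lists moved with single libraries or not at all. Of 40 tested skeletal muscle markers 12 were higher and 1 was lower at a nominal p below 0.05 (against 4.9% and 3.08% of all tested genes, as for the lists below), with 0 higher without rIL34 replicate 1 and 6 or 7 higher without rctrl replicates 1, 2, 3, 5 or 6. ckm.L, muscle creatine kinase, was read at 116 CPM in that library and at 1.00 to 11.1 CPM in the other rIL34 wounds, against 1.30 to 8.81 CPM in rctrl wounds. That library was also the highest for fos.L, fos.S and sik1.S, and the part of muscle tissue in those differences was not tested. Of 26 tested red blood cell markers 6 were lower and 0 higher at a nominal p below 0.05, with 3 lower without rIL34 replicate 4 and 0 without rIL34 replicate 6 or rctrl replicate 3. Of 51 tested interferon response genes 4 were higher and 6 lower by the same measure, with 0 lower without rctrl replicate 4. irf1.S, a transcription factor induced by interferon gamma, had 43.2 ± 25.2 CPM in rIL34 wounds and 17.5 ± 2.76 CPM in rctrl wounds without overlap (1.30 ± 0.40, edgeR adjusted p = 0.22 over the 36 and 0.051 over the 18 libraries), while MX2, a target of type I interferon, had 25.3 ± 11.7 CPM in rIL34 and 54.9 ± 38.9 CPM in rctrl wounds with overlap (-1.12 ± 0.40, 0.36 and 0.28). Of 37 tested circadian clock genes 5 were higher and 0 lower, with 3 higher and 2 lower without rIL34 replicate 4, 7 lower without rIL34 replicate 6, and 3 lower without rIL34 replicate 3 or rctrl replicate 3. arntl.S, the clock factor BMAL1, was read at 87.7 and 87.2 CPM in rIL34 replicates 1 and 5, the libraries high in fos, and at 8.33 to 14.9 CPM in the other rIL34 wounds, against 6.77 to 13 CPM in rctrl wounds. No gene of the muscle, red blood cell or interferon lists was called by edgeR, DESeq2 or voom, and of the clock list edgeR and voom called 0 and DESeq2 2. Of the mast cell, pigment cell and mitochondrial-genome lists (9, 28 and 13 tested) edgeR, DESeq2 and voom called 0, with 0 at a nominal p below 0.05. The lists of TGF-beta pathway genes and of PDGF and FGF ligands and receptors (66 and 36 tested) each had 1 member higher and 0 lower at a nominal p below 0.05, as did that of 26 Schwann cell and nerve markers. Of 33 tested myofibroblast and smooth muscle markers 2 were higher and 0 lower, of 57 cholesterol genes 0 and 2, and of 16 IL17, IL18 and IL23 pathway genes 4 and 0 (1 higher without rIL34 replicate 4 or rctrl replicate 1, and 2 without rctrl replicates 3, 4 or 5). edgeR, DESeq2 and voom called 0 in each of these 6 lists, and their counts of 1 or 2 ranged over 0 to 4 when a library was left out.

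The rIL34 effect at 14 dpw was set against that at 7 dpw with a test of the difference itself, 14 less 7 dpw, each day against its own rctrl wounds. It was called for 2132 genes upward (7.55%) and 3073 downward (10.9%) of the 28225, while at 7 dpw alone 7630 genes were called (27.0%), 4471 higher (15.8%) and 3159 lower (11.2%). Of the 14 genes called at 14 dpw, 10 passed this test. They had been picked by their effect at 14 dpw, which is part of the difference, so that passing was favoured in advance. For CCL19 the log2 fold change was -0.70 at 7 dpw and 4.10 at 14 dpw (difference 4.80 ± 0.90, adjusted p = 0.00041). selp.L and Sele had -0.67 and -1.22 at 7 dpw (differences 3.23 and 4.38, adjusted p = 0.00077 and 0.00041), and jak3.L, rasgrp2.S and arhgap30.S had -0.42, -0.51 and -0.50 (differences 1.54, 1.37 and 1.63, adjusted p = 0.00021, 0.00019 and 0.00053). slc38a1.L (difference 1.15), slurp1l.S (1.83), XB5913531.S (5.37) and arrdc3.S (-0.77) passed as well. The early genes fos.L, fos.S and sik1.S did not pass it, and at 7 dpw they were called higher as well, with 2.55, 2.75 and 2.04 (adjusted p = 0.00089, 0.00034 and 0.00046), and neither did LOC108697900 (0.47 at 7 dpw, difference 0.74, adjusted p = 0.11).

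Lymphocyte and chemokine lists changed sign between the days. At 7 dpw the median log2 fold changes were -0.92 for chemokines and their receptors, -0.69 for T and NK cell markers and -0.60 for B and plasma cell markers, with 11, 11 and 4 of 35, 37 and 21 members called lower and 1 called higher in each (11.2% and 15.8% of all tested genes), while at 14 dpw the medians were 1.01, 0.87 and 1.00. The difference was called upward for 22 of 35, 20 of 37 and 11 of 21 members and downward for 0, 1 and 0, against 7.55% and 10.9% of all tested genes. cd3g.S had -1.74 at 7 dpw (adjusted p = 0.0057) and 1.90 at 14 dpw (difference 3.65, adjusted p = 0.00036), PAX5 had -1.23 (0.014) and 1.77 (3.00, 0.00024), and cxcl9.S had -2.28 (0.0088) and 2.85 (5.13, 0.00037). cxcl8.S had -0.99 (adjusted p = 0.13) and 1.87 (difference 2.87, adjusted p = 0.0047). The epidermal list went the other way, with a median of 0.88 and 43 of 68 members called higher at 7 dpw (15.8% of all tested genes), a median of -0.16 at 14 dpw, and 31 differences called downward. jup.S, the junction protein plakoglobin, had 2.02 at 7 dpw (adjusted p = 2.7e-07) and -0.50 at 14 dpw (difference -2.52, adjusted p = 4.3e-06). acta2.L had 2.03 at 7 dpw (adjusted p = 0.0023) and -0.30 at 14 dpw (difference -2.33, adjusted p = 0.015), and rhbg.L had 1.61 (adjusted p = 0.0040) and -1.1 (difference -2.71, adjusted p = 0.0015). At 7 dpw acta2.L was read at 10.8 to 172 CPM in rIL34 wounds and at 14.1 to 28.3 CPM in rctrl wounds. The lowest of those rIL34 libraries lay below every rctrl library. Cell cycle genes had a median of 0.09 at 7 dpw and -0.49 at 14 dpw, with 17 differences called downward and 1 upward. Apart from cxcl8.S and acta2.L, which the study's own comparisons name, the single genes of this paragraph had been picked by a small p at 14 dpw. That effect is part of the difference, so that a small p for the difference was favoured in advance.

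**Figure D5:**
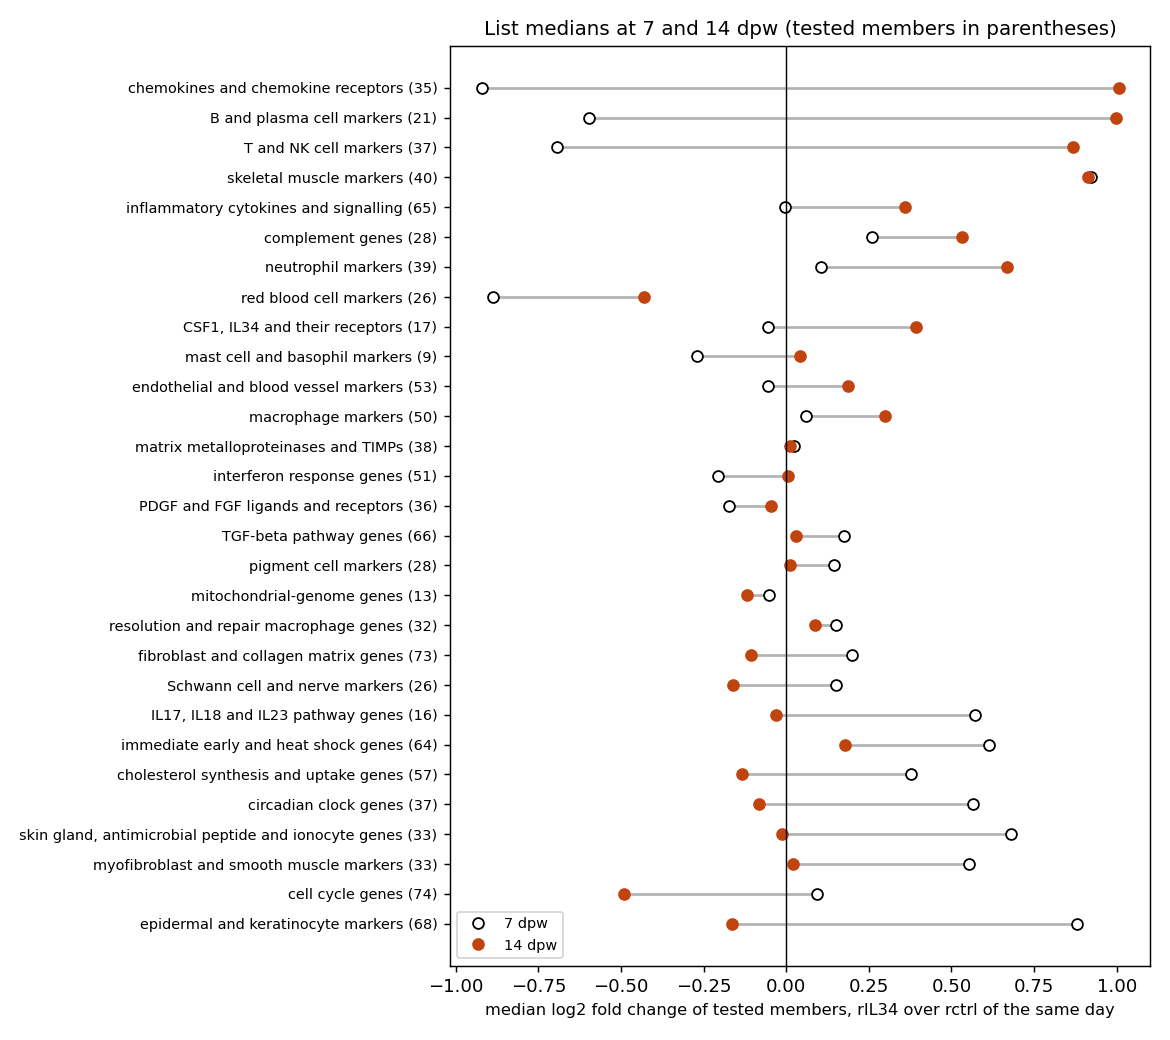
Median log2 fold change (rIL34 over rctrl wounds of the same day) of the tested members of each gene list at 7 dpw (open circles) and 14 dpw (filled circles). Chemokines, T and NK cell markers and B and plasma cell markers lie below 0 at 7 dpw and above 0 at 14 dpw, and the epidermal list does the reverse.

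Against rCSF1-treated wounds of the same day, rIL34-treated wounds had 349 called genes (1.24%), 43 higher (0.152%) and 306 lower (1.08%). Of the 14 genes called against rctrl, 5 were also called higher than in rCSF1 wounds: fos.L (2.46, adjusted p = 0.018), fos.S (2.64, 0.0098), selp.L (2.26, 0.0098), Sele (2.44, 0.027) and slurp1l.S (1.80, 0.0090). The 14 had been picked by their values in the same rIL34 libraries, so that passing was favoured in advance. For this comparison no library was left out in turn. selp.L was read at 3.70 to 48.1 CPM in rIL34 wounds and at 2.03 to 4.82 CPM in rCSF1 wounds, where only rIL34 replicate 1 overlapped. For CCL19 the difference was 2.15 (adjusted p = 0.082), with 2.46 to 32.1 CPM (median 3.97) in rCSF1 wounds. For jak3.L the difference was 0.13 ± 0.19 (adjusted p = 0.81), and against the rctrl wounds that both comparisons share jak3.L rose by 1.12 after rIL34 and 0.98 after rCSF1 (adjusted p = 0.012 and 0.0037). Against the shared rctrl wounds, list medians after rCSF1 were 0.67 for complement genes and 0.60, 0.54 and 0.70 for macrophage, neutrophil and T and NK cell markers. Those after rIL34 were 0.53, 0.30, 0.67 and 0.87. For B and plasma cell markers, chemokines, inflammatory and cell cycle genes they were 0.52, 0.47, 0.24 and -0.11 after rCSF1. After rIL34 these were 1.00, 1.01, 0.36 and -0.49. Between the cytokines edgeR and DESeq2 called 0 of the T cell, B cell and neutrophil list members. At a nominal p below 0.05 in edgeR 1 T and NK cell marker was higher and 0 lower, 9 B and plasma cell markers were higher and 1 lower, and 5 neutrophil markers were higher and 2 lower, of 37, 21 and 39 tested and against 5.67% higher and 7.75% lower of all tested genes, and voom called 2 B and plasma cell markers higher and 1 lower. Of the skeletal muscle list 27 of 40 were called lower in rIL34 than in rCSF1 wounds, with ckm.L at 1.00 to 116 CPM in rIL34 wounds and 10.7 to 3325 CPM in rCSF1 wounds, and the part of muscle tissue in the other differences between these groups was not tested.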

How the data were processed

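Strand-specific libraries made after ribosomal RNA depletion (NEBNext Ultra II) had been sequenced from 36 wound samples, and per the submitters' processing notes and the study's methods the authors trimmed reads with fastp, aligned them with minimap2 2.29 to the RefSeq genome Xenopus_laevis_v10.1, sorted them with SAMtools 1.16.1 and counted them with featureCounts 2.1.1. The deposited values are raw counts per gene, not normalized, in 1 table of 42675 rows. The strand option of the counting is not given in the sources used here, so that overlapping antisense genes are uncertain, as are L and S homeologs, which can share reads. The row with no name and 417 rows without a gene symbol took 0.628 to 2.08% of the counts and were left out, and 122 symbols stood on more than 1 row and were numbered. Of 42257 named rows 38707 matched the RefSeq gene table, from which positions were taken.

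The depth per library was 25205710 to 31625071 counts in the compared groups. Genes with at least 0.5 CPM in 10 of 36 libraries were tested (28225) with edgeR 4.0.16 in R 4.3.3 (TMM scaling, quasi-likelihood test, 6 groups with 1 shared estimate of the spread), with Benjamini-Hochberg adjustment over all of them and a threshold of 0.05. The comparisons were rIL34 against rctrl at 14 dpw, that effect less the effect at 7 dpw, and rIL34 against rCSF1 at 14 dpw. The 5 shares of counts and the collagen ratio were compared by exact two-sided permutation. Alternatives were DESeq2 1.42.0, voom with quality weights (limma 3.58.1), RLE scaling, no filter, a filter at 5 CPM, summed L and S copies, a replicate block, fits to the 18 libraries of 14 dpw or to 12 libraries, and leaving out each library. Leaving out rIL34 replicates 1 and 4 together was chosen after seeing the data.

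Genes named were all genes called at 14 dpw, genes of the study's own wound comparisons, those with the largest changes, the strongest members of each list, and those with the smallest adjusted p over the 18 libraries. Second copies of named genes, tp63.L and the other Sele row were added after their values were seen. The 29 gene lists were written from knowledge of the pathways and cell types. Members and lists were chosen with earlier results of these data known. The statistics were tested on simulated counts.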

Additional observations from a re-analysis of the deposited data

Results flagged for a closer look

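Dixon's criterion for a library far from the other 5 of its group was met in 8 of 40 groups checked. Chance meets it in about 1 of 20 groups of normally distributed values, a condition not tested for these CPM and shares. The libraries were rIL34 replicate 4 for CCL19 (131.3 CPM), selp.L (48.09 CPM) and Sele (25.64 CPM), and rIL34 replicate 6 for slurp1l.S (18.14 CPM) and XB5913531.S (21.44 CPM). Among the shares of counts it was rIL34 replicate 1 for skeletal muscle markers (0.1139%), and rIL34 replicate 2 (0.1552%) and rctrl replicate 3 (0.2574%) for red blood cell markers.

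The rIL34 effect differed between 14 and 7 dpw, by the edgeR test of the difference (14 less 7 dpw, log2), for 10 of the 14 called genes. Those genes had been picked by the 14 dpw effect that the difference contains, which favoured this outcome. The differences were 4.802 for CCL19, 3.232 for selp.L, 4.375 for Sele, 1.536 for jak3.L, 1.368 for rasgrp2.S, 1.626 for arhgap30.S, 1.146 for slc38a1.L, 1.826 for slurp1l.S, 5.372 for XB5913531.S and -0.765 for arrdc3.S.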

How the results depend on the processing

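Over the 28225 genes, rIL34 wounds at 14 dpw had 13 genes called higher and 1 lower, and the count held within 1.5 times with RLE scaling (13 and 1), no filter (18 and 1, of 38694) and a filter at 5 CPM (12 and 1, of 19286). It was 152 and 32 with DESeq2, 73 and 58 with voom, 142 and 44 with the 18 libraries of 14 dpw, 0 and 0 with 12 libraries, 7 and 0 without rIL34 replicates 1 and 4, and 13 and 2 with L and S copies summed, where arrdc3 (-0.51) and rasgrp2 (0.90) lost their calls (adjusted p = 0.70 and 0.082). Leaving out 1 library gave 0 to 39 higher and 0 to 3 lower. The replicate block gave 0 higher and 0 lower, with 1323 and 858 at a nominal p below 0.05. Libraries of the same number did not visibly deviate together (r of -0.142 to 0.061, with 0 of 6 pairs over 0.1 and none best with its own number). Correlations over 6 pairs cannot exclude a weak effect shared by libraries of the same number. For the change between days, voom called 3517 upward. Against rCSF1 there were 163 higher and 605 lower with DESeq2, 249 and 548 with voom, 134 and 543 with 18 libraries, 0 and 2 with 12, 18 and 145 with the replicate block, and 28 higher with L and S copies summed. Of the values without many genes, leaving out 1 library gave -0.469 to -0.164 for the collagen ratio, -0.4078 to -0.2003 percentage points for ribosomal RNA, -0.1226 to -0.07007 for mitochondrial-genome genes, -0.2277 to -0.09259 for epidermal markers (without rctrl replicates 3 and 5), 0.003639 to 0.02122 for muscle and -0.03373 to 0.02296 for red blood cell markers, and a log2 fold change of -0.078 to 0.428 for mpo.L. For 71 of the genes named with a fold change, 1350 of 1569 values under these alternatives kept their direction and side of the threshold, 133 kept the direction but no longer passed, 85 newly passed and 1 (mpo.L without rIL34 replicate 6) changed sign. Only a gene called in the main fit could stop passing, so that all 133 lie among the 14 called genes. A gene not called there counted as kept when it again did not pass, so that the 1350 do not measure how stable the calls were. The cause of these differences was not tested.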
